A study of Mus musculus with 6 samples.

Results

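The genes of fibroblast growth factor (FGF) signalling described here are 10 in number, the 7 ligands Fgf1, Fgf3, Fgf8, Fgf9, Fgf10, Fgf15 and Fgf16 and the 3 receptors Fgfr1, Fgfr2 and Fgfr3. They were read through every probe set whose platform annotation named a single one of these genes, dim probe sets included, which gave 20 of the 45037 probe sets that are not controls. The tissue was the outflow tract, the vessel-like end of the embryonic heart that later forms the bases of the aorta and pulmonary trunk. The study asked how expression differs between its superior and inferior subdomains, dissected from CD1 mouse embryos at embryonic day 10.5, and all groups shared this strain and stage, with no mutation or treatment named. RNA of each region was available as 3 pools, numbered 1, 6 and 7, each on 1 Affymetrix Mouse Genome 430 2.0 array. A pool joined pieces of 6 littermate embryos according to the sample labels and of 7 dissections according to the series' design text.

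FGF ligands are secreted proteins that bind receptor tyrosine kinases on neighbouring cells with the help of heparan sulfate, and the receptors then switch on the RAS and ERK kinase cascade. The cascade induces ETS factors such as Etv4 and Etv5, and also its own inhibitors of the Sprouty, Spred and dual-specificity phosphatase families. In the heart tube, Fgf8 and Fgf10 are known from the second heart field, the progenitor population that extends the outflow tract, and Fgfr1 and Fgfr2 are the receptors through which that mesoderm responds. In bulk tissue, fewer cells that make a transcript and less of it per cell cannot be told apart.

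Values are MAS5 signals, a linear brightness scaled to a common level in every array. A set of 27 control probe sets is for bacterial transcripts that were taken as not added to the samples. Their highest signal, 8.0, is called background here. Between 58.4% and 63.1% of probe sets lay above it in the 6 arrays. Heart muscle genes were bright in both regions, with Myh7 the brightest, and their 14 listed genes summed to signals of 52203 to 62441 in superior and 46754 to 47957 in inferior pools. The superior pool 6 array had hybridisation controls at 1.63 times the level of the median array. Both arrays of pool 1 had a low signal of 18S ribosomal RNA, 98 in superior and 86.4 in inferior, where the other arrays had 378 to 533, and the ratio of the 3′ to the 5′ actin probe set was 2.23 and 2.26 in pool 1 against 1.45 to 1.87 elsewhere. The same ratio for Gapdh differed between the regions of pool 1, at 1.30 in superior and 2.21 in inferior, and was 0.83 to 0.90 in the other arrays. Differences are superior minus inferior in log2(signal + 3.2), fitted with limma with the pool number as a block, the paired fit. Of the 20 probe sets, 9 passed the filter on dim signals and were tested. They cover Fgf1, Fgf8 and the 3 receptors.

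None of the 10 genes passed the test of a difference between regions at an adjusted p of 0.05, with the pool number in the fit or without it. Fgf8 had the largest difference among the tested members, with a lower signal in the superior pools. Fgf1, Fgfr3 and the brightest Fgfr2 probe set also had lower superior signals in every pool, by smaller amounts. Fgfr1 had differences near 0 or of mixed sign across pools. Fgf3, Fgf9, Fgf10, Fgf15 and Fgf16 were dim and overlapped between the regions.

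Fgf8 is a ligand of pharyngeal ectoderm, endoderm and heart progenitors whose loss in mice shortens and misaligns the outflow tract. Its probe set 1451882_a_at had signals of 17.9, 11.5 and 25.6 in superior pools 1, 6 and 7, against 44.3, 23.4 and 57.2 in inferior pools 1, 6 and 7. The inferior signal exceeded the superior one of the same pool each time, while the highest superior value lay just above the lowest inferior one, so the groups overlapped. All 6 values stood above background. The means were 18.3 ± 7.06 in superior and 41.6 ± 17.1 in inferior pools (SD, n = 3 each). The log2 difference was -1.03 with a 95% interval of -1.43 to -0.64 in the paired fit, or 0.489 times the inferior level (limma adjusted p = 0.0932). Single pools gave -1.17, -0.86 and -1.07 for numbers 1, 6 and 7. Pool 1, with the largest of these values, is the pool whose regions had unlike Gapdh ratios, and the part of RNA quality was not tested. Without the pool number the interval was -1.88 to -0.19 (limma adjusted p = 1.00). Without pool 6 the paired difference was -1.12 and crossed the threshold (limma adjusted p = 0.0330), in a fit with 1 residual degree of freedom that called 231 probe sets. It did not cross it without pool 1, at -0.96 (limma adjusted p = 0.668), or without pool 7, at -1.01 (limma adjusted p = 0.104). Over all the alternative fits run, its limma adjusted p lay between 0.0330 and 1.00.

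Fgf1, acidic FGF, is a broadly acting ligand that can bind every FGF receptor. Its brightest probe set, 1423136_at, had signals of 42.0, 59.5 and 21.9 in superior pools 1, 6 and 7, against 70.7, 78.4 and 26.7 in inferior pools 1, 6 and 7. Pool 7 was low in both regions, and within each pool the superior value was the lower one. The log2 difference was -0.45 with a 95% interval of -0.80 to -0.09 (limma adjusted p = 0.389), from -0.71 in pool 1 to -0.25 in pool 7. In the unpaired fit it was -0.086 without the superior array of pool 7 and -0.91 without the inferior one. A second probe set, 1450869_at, had signals of 15.1, 26.1 and 10.6 in superior pools against 28.4, 27.8 and 12.5 in inferior pools. It ran the same way in every pool (log2 -0.35, 95% interval -0.85 to 0.14, limma adjusted p = 0.589), again with pool 7 the lowest, and was -0.13 without pool 1. In the unpaired fit it was -0.10 without the superior array of pool 7 and -0.68 without the inferior one. The dim probe set 1441042_at lay above background in 0 of 3 superior and 1 of 3 inferior arrays and gives no fold.

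Fgf10 is a ligand of the anterior second heart field that signals mainly through an isoform of Fgfr2. Its probe set had signals of 8.1, 19.9 and 10.6 in superior pools 1, 6 and 7, against 12.2, 13.4 and 17.0 in inferior pools 1, 6 and 7. It was above background in all 6 arrays but too dim for the filter, and pool 6 ran opposite to the other pools. Tested among all probe sets with no filter, its log2 difference was -0.17 with a 95% interval of -0.83 to 0.48 (limma adjusted p = 0.922).

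Fork head, T-box, GATA and ETS factors act in second heart field or FGF-responsive cells, so the 250 bases before the annotated transcription starts were searched on both strands for the fork head letters TGTTTAC, for the T-box letters TCACACC, for the GATA letters AGATAA and for the ETS letters CCGGAAG. The RefSeq promoter table of build GRCm38.p6 held windows for 5 of the 10 genes, Fgf3, Fgf9, Fgf10, Fgfr2 and Fgfr3. The Fgf10 window, chr13:118714449-118714698 on the + strand, is shown because it was the 1 among them with the fork head letters, in capitals, at bases 11 to 5 before the start:
Fgf10: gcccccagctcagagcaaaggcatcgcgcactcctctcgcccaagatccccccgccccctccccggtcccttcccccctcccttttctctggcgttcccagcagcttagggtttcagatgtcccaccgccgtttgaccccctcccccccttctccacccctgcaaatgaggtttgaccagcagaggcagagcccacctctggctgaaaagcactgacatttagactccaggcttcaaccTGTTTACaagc
These letters occurred in 3.16% of 32817 promoter windows of the same length. Windows of Fgf3 and Fgf9 each held the GATA letters on the opposite strand, as did 9.99% of windows on either strand. The T-box and ETS letters, found in 3.33% and 6.90% of windows, were in none of the members' windows. A match of letters is a description of the sequence and no measurement of binding.

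Fgf9, which endocardium and epicardium supply to heart muscle at later stages in the mouse, had 2 dim probe sets. The brighter, 1420795_at, had signals of 10.1, 15.4 and 12.4 in superior pools 1, 6 and 7, against 7.5, 5.9 and 16.8 in inferior pools 1, 6 and 7. It lay above background in 3 of 3 superior and 1 of 3 inferior arrays, with pool 7 running opposite to the others, and 2 of the 3 inferior values were below background, so no fold is given. The other, 1438718_at, ranged from 5.6 to 10.1 in superior and from 4.9 to 8.4 in inferior pools.

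Fgf3 is a ligand of pharyngeal epithelia and the inner ear placode, and Fgf15, the mouse counterpart of human FGF19, is expressed in the pharyngeal arches, where its loss in mice misaligns the outflow tract. Of the 3 Fgf3 probe sets, 1441350_at was the brightest, at 7.7, 8.7 and 11.5 in superior pools 1, 6 and 7 against 9.3, 8.0 and 7.0 in inferior pools 1, 6 and 7. Its values straddled background in both regions and the pools differed in direction. Probe set 1422923_at had 16.8 in inferior pool 7 and no other signal above background, and 1441914_x_at had none. Fgf15 stayed below background in all 6 arrays, at 0.7 to 3.0 in superior and 2.6 to 6.4 in inferior pools. So did Fgf16, a ligand of heart muscle and its coverings, at 0.7 to 7.1 in superior and 1.3 to 2.6 in inferior pools. With both regions below background these genes give no fold, and a difference was not detectable at this signal.

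**Figure D1:**
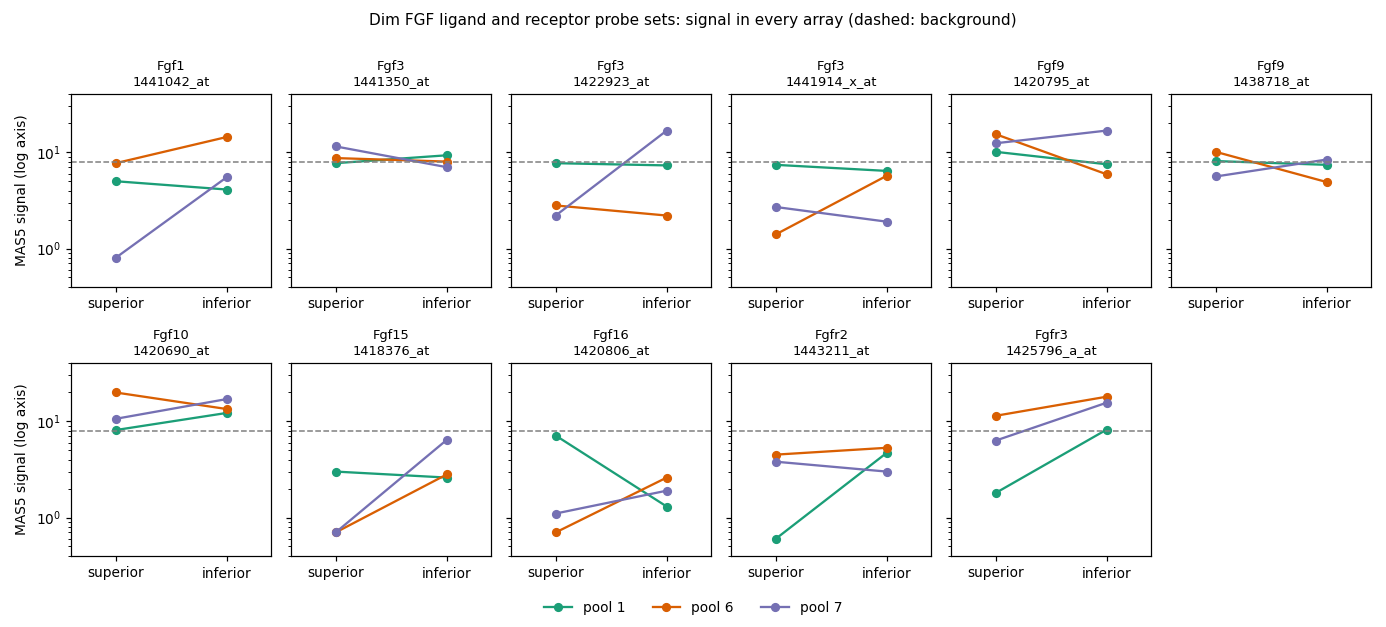
Signals of the 11 FGF probe sets that did not pass the filter, on a log axis from superior (left) to inferior (right), with 1 line per pool and background as a dashed line. Lines of different pools cross in most panels, and Fgf15 and Fgf16 lie below background in every array, while Fgfr3 1425796_a_at is lower in superior in all 3 pools.

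Fgfr3 encodes a receptor best known from cartilage and the inner ear. Its bright probe set, 1421841_at, had signals of 152.9, 108.7 and 150.8 in superior pools 1, 6 and 7, against 184.4, 189.6 and 185.3 in inferior pools 1, 6 and 7. This was the 1 member probe set of 20 whose regions did not overlap, with every superior value the lower, as in 4.62% of all probe sets, and the inferior pools lay close together. The means were 137.5 ± 24.9 in superior and 186.4 ± 2.78 in inferior pools (SD, n = 3 each). The log2 difference was -0.45 with a 95% interval of -0.74 to -0.15 (limma adjusted p = 0.322), and an exact permutation test over the 6 arrays gave a two-sided p of 0.1, the smallest that 3 arrays against 3 can give. Pool 6 differed most, at -0.78, while pools 1 and 7 gave -0.27 and -0.29, and leaving pool 6 out gave -0.28. The superior array of that pool is the one with the bright hybridisation controls, whose part in the value was not tested. A dim probe set, 1425796_a_at, had 1.8, 11.4 and 6.3 in superior pools 1, 6 and 7, against 8.2, 18 and 15.6 in inferior pools 1, 6 and 7. It was above background in 1 of 3 superior and 3 of 3 inferior arrays and was lower in superior in each pool. With 2 of the 3 superior values below background, no fold is given.

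Fgfr2, a receptor of Fgf3, Fgf8 and Fgf10 in its different splice forms, had 2 tested probe sets. Probe set 1433489_s_at had signals of 125.9, 139.5 and 86.2 in superior pools 1, 6 and 7, against 154.7, 163.7 and 113.5 in inferior pools 1, 6 and 7. Pool 7 was the lowest in both regions and the groups overlapped, while the pool differences were alike at -0.29, -0.23 and -0.38. The log2 difference was -0.30 with a 95% interval of -0.55 to -0.05 (limma adjusted p = 0.399). In the unpaired fit it was -0.10 without the superior array of pool 7 and -0.46 without the inferior one. Probe set 1420847_a_at had 18.9, 30.2 and 38.0 in superior pools against 20.6, 45.8 and 38.2 in inferior pools, so that pool 6 carried most of its difference (log2 -0.22, 95% interval -0.63 to 0.19, limma adjusted p = 0.689). The remaining probe set, 1443211_at, was below background in all 6 arrays.

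The promoter windows of these 2 receptors, whose bright probe sets were lower in superior in every pool, held none of the 4 letter strings. Fgfr3 has 2 annotated starts, with windows at chr5:33721474-33721723 and chr5:33722056-33722305 on the + strand, of which 66.8% and 72.8% of bases were G or C. The Fgfr2 window, chr7:130266809-130267058 on the - strand, had 44.0%.
Fgfr3 upstream start: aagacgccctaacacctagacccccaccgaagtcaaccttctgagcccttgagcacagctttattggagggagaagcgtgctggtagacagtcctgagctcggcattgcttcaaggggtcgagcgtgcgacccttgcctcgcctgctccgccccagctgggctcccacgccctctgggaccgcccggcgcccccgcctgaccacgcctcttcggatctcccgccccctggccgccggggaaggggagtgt
Fgfr3 downstream start: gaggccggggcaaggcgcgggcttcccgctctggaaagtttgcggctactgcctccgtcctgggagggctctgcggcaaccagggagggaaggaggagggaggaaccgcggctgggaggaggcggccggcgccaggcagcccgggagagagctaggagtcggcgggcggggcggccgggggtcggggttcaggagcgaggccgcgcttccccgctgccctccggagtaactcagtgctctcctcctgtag
Fgfr2: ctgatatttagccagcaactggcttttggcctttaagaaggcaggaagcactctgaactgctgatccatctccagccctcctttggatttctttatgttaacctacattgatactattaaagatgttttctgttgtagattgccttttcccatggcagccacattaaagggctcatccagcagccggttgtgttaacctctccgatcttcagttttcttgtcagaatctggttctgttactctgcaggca

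Fgfr1 encodes the receptor that mediates most FGF signalling in early mesoderm. Its brightest probe set, 1424050_s_at, had signals of 139.2, 233.9 and 167.9 in superior pools 1, 6 and 7, against 174.7, 179.3 and 255.4 in inferior pools 1, 6 and 7. Pool 6 ran opposite to the others (log2 -0.18, 95% interval -0.57 to 0.21, limma adjusted p = 0.740), and without pool 7 the difference was 0.03. Probe set 1436551_at was nearly level, at 33.1, 27.4 and 29.8 in superior pools against 34.0, 31.4 and 31.0 in inferior pools (log2 -0.09, 95% interval -0.45 to 0.28, limma adjusted p = 0.880). Probe set 1425911_a_at had 12.8, 50.4 and 50.4 in superior pools against 13.1, 51.8 and 56.1 in inferior pools. Here the 2 arrays of pool 1 stood far below the other 4 while the regions of a pool hardly differed (log2 -0.07, 95% interval -0.43 to 0.29, limma adjusted p = 0.909). Pool 1 is also the pool with the low 18S signal and the high actin 3′ to 5′ ratio, and the part of RNA quality in this value was not tested.

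**Figure D2:**
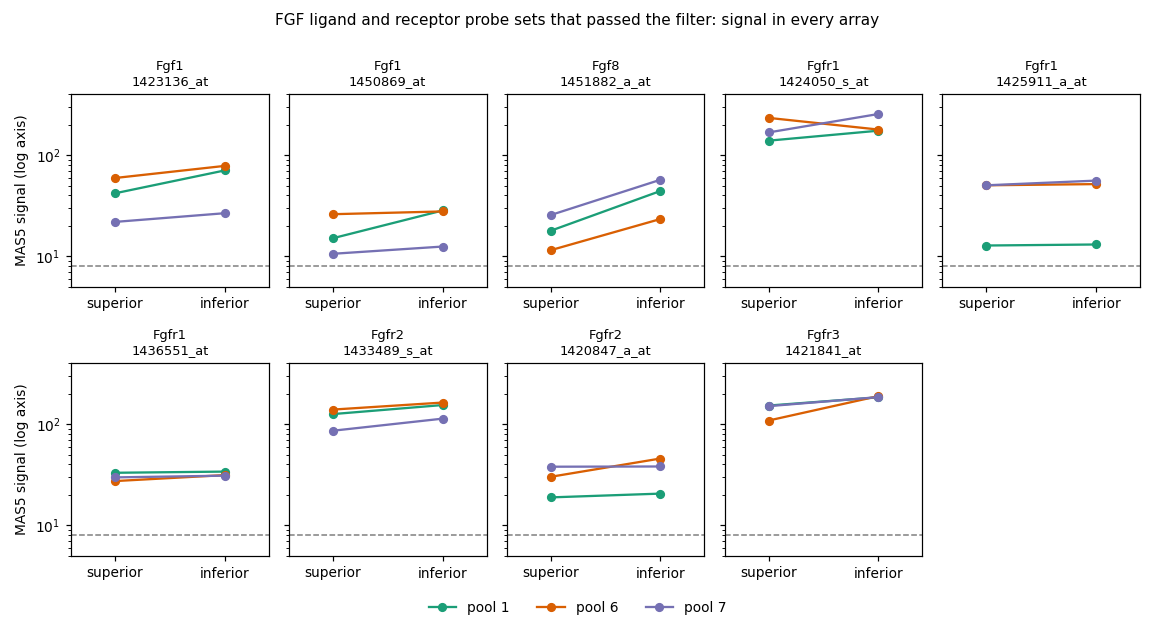
Signals of the 9 tested FGF probe sets in every array, on a log axis from superior (left) to inferior (right), with 1 line per pool and background as a dashed line. Every Fgf8 line climbs toward inferior, the 3 inferior Fgfr3 values meet between 184.4 and 189.6, and pool 1 lies far below the other pools for Fgfr1 1425911_a_at.

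Of the 9 tested probe sets 0 were called by limma in the paired fit, where 0.160% of the 22518 tested probe sets were, 21 higher and 15 lower in superior. Without the pool number 0 were called, as over the whole array. At an unadjusted p under 0.05, the paired fit passed 4 of the 9, all lower (Fgf8, Fgf1 1423136_at, Fgfr3 1421841_at and Fgfr2 1433489_s_at), where it passed 6.00% of all tested probe sets in that direction. The unpaired fit passed 2, Fgf8 and Fgfr3 1421841_at, where it passed 1.74% in that direction. With no filter, limma called 0 of all 20, where it called 0.00222% of probe sets, and 5 of the 20 were lower at an unadjusted p under 0.05, where 3.98% of probe sets were, the fifth being the mostly dim Fgfr3 1425796_a_at. Over all 20 probe sets, dim ones included, 16 had a negative difference, against 55.0% of all probe sets, and 9 were lower in superior in every pool, against 15.9%. Probe sets of a gene measure the same transcripts and all 20 share the 6 arrays. The members were also chosen with earlier results of these data known, so these counts are a description.

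**Figure D3:**
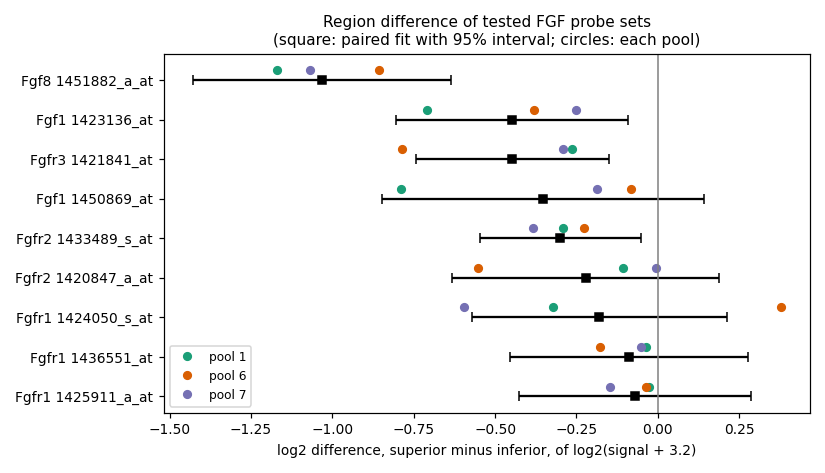
Log2 difference, superior minus inferior, of the 9 tested FGF probe sets, with squares and bars for the paired fit and its 95% interval and circles for the single pools. All 9 squares lie below 0, from -1.03 for Fgf8 to -0.07 for Fgfr1 1425911_a_at, and the intervals of 5 of them include 0.

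The range of the pool means in log2 exceeded the size of the region difference for 8 of the 9 tested probe sets, a share near the 83.3% of all tested probe sets. The range was 1.80 for Fgfr1 1425911_a_at, where the arrays of pool 1 were low, 1.38 for Fgf1 1423136_at and 1.08 for Fgf8. Fgfr3 1421841_at was the exception, with a range of 0.22 beside its difference of -0.45.

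The remaining ligands, receptors and co-receptors of the family were measured from a list of 21 genes, of which 5 passed the filter. All 5 had negative differences and 0 were called (median log2 -0.11, against -0.0028 over all 11195 tested genes, of which 50.8% were lower). With the dim genes of the list included, the median was 0.045. Fgf12, an intracellular FGF homologue that binds sodium channels, had signals of 13.1, 13.9 and 18 in superior pools 1, 6 and 7, against 46.7, 18.3 and 21.3 in inferior pools 1, 6 and 7. Its difference of -0.72 (limma adjusted p = 0.431) came mainly from pool 1, at -1.61 against -0.33 and -0.21. The Fgf12 signals of superior pools 1 and 6 lay below the filter signal of about 15.1, and all inferior ones above it. Fgf12 was thus tested only because of its higher inferior signals, which favours the negative sign counted above. Pool 1, where Fgf1 also differed most, is the pool whose regions had unlike Gapdh ratios, and the part of RNA quality in these values was not tested. Fgfrl1, a receptor-like protein with no kinase domain, had a difference of -0.24 (limma adjusted p = 0.479), and Fgf13, a relative of Fgf12, -0.11 (limma adjusted p = 0.703). Fgf2, Fgf20, Fgf21 and the co-receptor gene Kl were below background in every array.

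Genes that FGF signalling induces had 18 tested members of a list of 21, of which 14 were lower and 4 higher in superior (median log2 -0.16), and 0 were called. At an unadjusted limma p under 0.05, 6 were lower and 1 was higher, where 593 and 680 of the 11195 tested genes were. The list was chosen with earlier results of these data known, so these shares are a description. Etv4 had signals of 18.1, 37.2 and 25.5 in superior pools 1, 6 and 7, against 46.9, 62.8 and 64.1 in inferior pools 1, 6 and 7, with no overlap. Its log2 difference was -1.06 ± 0.17 (SE; limma adjusted p = 0.0790), the nearest in size to that of Fgf8, and the pool values of Etv4 were -1.23, -0.71 and -1.23. Pool 6 thus had the smallest difference for both genes. This was not limited to the response list: the neural crest marker Dlx2 had -0.99 (limma adjusted p = 0.155), with pool values of -1.34, -0.35 and -1.29. Etv5 had 205.6, 199.1 and 206.1 in superior pools against 309.0, 251.3 and 347.8 in inferior pools (log2 -0.55 ± 0.11, SE; limma adjusted p = 0.145), again smallest in pool 6. The other tested Etv5 probe sets had smaller differences, of -0.22 and -0.31 (limma adjusted p of 0.781 and 0.542). Dusp4, a phosphatase that turns off ERK, was even across pools at -0.50, -0.59 and -0.58 (limma adjusted p = 0.0732). Dusp6, another ERK phosphatase and a common readout of FGF signalling, had a difference of -0.09 (limma adjusted p = 0.746). The Sprouty inhibitors Spry1, Spry2 and Spry4 had differences of -0.30, -0.14 and -0.30, with limma adjusted p of 0.528, 0.605 and 0.646, and Spry4 had -0.83 at its other tested probe set (limma adjusted p = 0.434).

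The adaptors and kinases between receptor and nucleus had 15 tested genes, 11 lower and 4 higher in superior, over the narrow range of -0.26 to 0.03, and 0 were called (median log2 -0.05). The largest was the exchange factor gene Sos2 at -0.26 (limma adjusted p = 0.480), while Sos1 had -0.13 (limma adjusted p = 0.695), with 0.10 at its other tested probe set, and Cbl, a ubiquitin ligase that removes active receptors, had -0.15 (limma adjusted p = 0.676). Heparan sulfate genes split evenly, 11 of 20 lower and 9 higher, with 0 called (median log2 -0.03). Sulf1, an enzyme that trims sulfate from heparan sulfate and so alters FGF binding, had 301.1, 302.6 and 227.8 in superior pools 1, 6 and 7 against 182.6, 199.1 and 212.7 in inferior pools 1, 6 and 7. The Sulf1 regions did not overlap (log2 0.47 ± 0.13, SE; limma adjusted p = 0.299). The sulfotransferase genes Hs6st2 and Hs3st1 had differences of 0.31 and -0.41 (limma adjusted p of 0.331 and 0.350).

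Markers of several cell types were not level between the regions, and their part in the FGF values was not tested. The marker lists too were chosen with earlier results of these data known, so their counts are a description. Of 11 tested epicardial markers 11 were higher in superior and 5 were called, where 17 of all 11195 tested genes were called higher and 10 lower. The summed signal of the epicardial markers was 1369 to 2374 in superior and 831.4 to 1111 in inferior pools. The mesothelial marker Msln was below background in all arrays. Second heart field markers, the population in which Fgf8 and Fgf10 are known to act, were lower in 5 of 8 tested cases with 0 called, and summed to 2189 to 2648 in superior and 2542 to 3154 in inferior pools. Isl1, the defining factor of this field and the brightest of its markers, averaged 807.4 ± 163 in superior and 1005 ± 242 in inferior pools (SD, n = 3 each). Its log2 difference was -0.31 (limma adjusted p = 0.293). At an unadjusted limma p under 0.05, 3 of the 8 were lower and 0 higher, namely Isl1, Nkx2-5 at -0.31 and Tbx1 at -0.55. Of the 11195 tested genes, 593 were lower and 680 higher at that p. The 3 higher markers were Foxc1 at 0.17, Eya1 at 0.15 and Mef2c at 0.011. Hoxb1 was below background in all arrays. Neural crest markers were lower in 6 of 7 tested cases with 0 called, with sums of 941.3 to 1153 in superior and 1207 to 1408 in inferior pools and Foxd3 and Tfap2b below background throughout. Of the 7, 3 were lower and 0 higher at an unadjusted limma p under 0.05, where 593 and 680 of the 11195 tested genes were. The 3 were Dlx2 at -0.99, Ngfr at -0.79 and Erbb3 at -0.53. Crabp1, the brightest of the list, had -0.11 (limma adjusted p = 0.763). Sox10, the 1 tested marker that went the other way, had 0.31 (limma adjusted p = 0.626). It was higher in superior in every pool, at 0.52, 0.0063 and 0.39 in pools 1, 6 and 7. Pharyngeal endoderm is a known source of Fgf3, Fgf8 and Fgf15, and of its markers Foxa1, Pax1 and Pax9 were below background in every array, while Cdh1, Epcam, Cldn4, Cldn6 and Ttr were above it in all 6. Shh was above background in all superior arrays, at 8.8, 8.8 and 9.9, and in no inferior array, at 6.0, 3.1 and 3.0. The list summed to 132.7 to 732.2 in superior and 190.1 to 272.7 in inferior pools, and the top value was mostly Ttr, at 570.4 in superior pool 6. Surface ectoderm, the other epithelial source of Fgf8, had 3 tested markers, all with negative differences and 0 called (median log2 -0.14). Of these, 0 were lower in every pool, and their median in pool 6 was 0.037. Krt5, too dim for the filter but above background in all 6 arrays, was higher in superior in every pool, at 0.30, 0.17 and 0.15. Surface ectoderm markers summed to 416.0 to 539.7 in superior and 418.4 to 627.5 in inferior pools. Of the 14 heart muscle markers 12 were higher and 2 lower in superior, with 0 called (median log2 0.25).

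For the 3 tested genes with the largest differences, the genes most like them in log2 signal over the 6 arrays were sought among all tested probe sets that name 1 gene. Those nearest to Fgf8 were Syt17, Anxa7 and Wwc2, each with a Pearson r of 0.99. Fgf1 was most like Iffo1, Mark3 and Skil (r of 1.00, 1.00 and 0.99), and Fgfr3 most like Nisch, Abca7 and Pi4kb (0.99 each). With 6 arrays that share pools and 19606 probe sets searched, high values of r describe these arrays only. The genes nearest to Fgf8 had smaller region differences than Fgf8, at -0.49 for Syt17, -0.36 for Anxa7 and -0.32 for Wwc2.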

How the data were processed

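Arrays of 3 superior and 3 inferior pools were compared. The deposited intensity of a probe set is a linear signal from MAS5, the tool named in the submitters' processing notes; its version was not given. Each array averaged 100 after 2% of probe sets had been trimmed at either end. MAS5 takes mismatch from perfect-match probes, so dim values are noisy, and the number of arrays limits the precision. Separate litters are not stated for the pools, so p-values may measure technical spread.

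Of the 45037 probe sets, 34945 named 1 gene, 932 several and 9160 none in the platform annotation. Checking by gene ID against RefSeq (GRCm38.p6) changed 0 symbols. Signals became log2(signal + 3.2), where 3.2 is their 25th percentile, which understates fold changes of dim genes. Probe sets with a mean above the median of all, a signal of about 15.1, were tested: 22518, for 11195 genes. A list's gene was represented by its brightest tested probe set. limma 3.58.1 in R 4.3.3 (eBayes with trend and robust variance, Benjamini-Hochberg adjustment over all tested probe sets) was fitted with the pool number as a block, leaving 2 residual degrees of freedom, and was tested on simulated data. Same-numbered arrays deviated together from their region means (r of 0.79, 0.43 and 0.51 for pools 1, 6 and 7, against -0.54 to 0.20 for unlike numbers), above the limit of 0.1 set for pairing; the labels do not say that a number marks shared embryos. Members and gene lists were chosen with earlier results of these data known. All member probe sets were named; from each pathway list the 3 tested genes with the smallest p, and Etv4, Etv5, Spry1, Spry2, Spry4 and Dusp6, were named too, as were the brightest or absent markers of cell types beside a result and the genes most like Fgf8, Fgf1 and Fgfr3. Further markers, such as Dlx2 and Krt5, were named where they limit a pattern. Alternatives changed the offset, filter, scaling, variance model, block and pools.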

Additional observations from a re-analysis of the deposited data

How the results depend on the processing

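The number of called probe sets over the whole array rested on the settings: it was 36 in the paired fit, 22 with an offset of 1, 2 in the top 25% by signal, 1 without the filter on dim probe sets, and 0 without the trend and robust variance. Without the replicate block, that is with the regions unpaired, it was 0, with a smallest adjusted p of 0.755. Leaving out a pool or a single array gave counts from 0 to 231, namely 9 without pool 1, 231 without pool 6, 116 without pool 7 and 0 without any single array in the unpaired fit. Scaling at the 75th percentile changed its split from 21 higher and 15 lower to 26 and 12. The call of a member changed in 1 of these settings, Fgf8 without pool 6. Leaving out pools or arrays moved the difference of Fgfr1 1424050_s_at between -0.46 and 0.028, of Fgfr1 1425911_a_at between -0.67 and 0.51 and of Fgfr2 1420847_a_at between -0.53 and 0.027. In these ranges the positive values are reversals, and the cause was not tested. The differences of Fgf8, both tested Fgf1 probe sets, Fgfr1 1436551_at, Fgfr2 1433489_s_at and Fgfr3 1421841_at stayed negative in every setting run, but their sizes moved when pools or arrays were left out: -0.91 to -0.086 for Fgf1 1423136_at, -0.68 to -0.10 for Fgf1 1450869_at, -0.15 to -0.029 for Fgfr1 1436551_at, -0.46 to -0.10 for Fgfr2 1433489_s_at and -0.54 to -0.28 for Fgfr3 1421841_at. The dim Fgfr3 1425796_a_at ranged from -1.26 to -0.49 in this way and was -0.42 with an offset of 16. The Fgf8 difference ranged from -1.37 to -0.72; the smaller size came with an offset of 16. The median of the other FGF ligands and receptors was 0.045 without the filter, -0.18 in the top 25% by signal, and -0.25 to -0.074 when pools or arrays were left out. The heparan sulfate median was 0.0080 with 75th percentile scaling, -0.064 in the top 25% by signal, -0.076 as a mean over probe sets, and -0.13 to 0.030 when pools or arrays were left out. Dim signals limit what can be said of Fgf3, Fgf9, Fgf10, Fgf15 and Fgf16.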
